A study of Homo sapiens with 12 samples.

Results

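The cornified envelope is the cross-linked protein shell that replaces the plasma membrane of a terminally differentiating keratinocyte. Transglutaminase 1 (TGM1) joins involucrin (IVL), the small proline-rich proteins (SPRR) and cornifelin (CNFN) to one another at the cell border, and filaggrin (FLG) bundles the keratin filaments beneath it. In stratified squamous epithelium, including that of the mouth, these genes mark the upper cell layers, and squamous carcinomas keep them to varying degrees. The genes described here were TGM1, IVL, SPRR1A, SPRR1B, SPRR2A, SPRR2D, SPRR3, CNFN, FLG and FLG-AS1, the last a long non-coding RNA antisense to filaggrin. They were taken by symbol, and each of the 10 matched 1 of the 58735 lines of the count table.

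Poly(A) RNA was sequenced from CAL-27 and SCC-15, both established human lines of oral squamous cell carcinoma, in 4 groups of 3 libraries: CAL-27 shTTK, CAL-27 shControl, SCC-15 shTTK and SCC-15 shControl. In the shTTK cells TTK, a kinase that holds mitosis until chromosomes are attached, was knocked down, and the control cells are labelled shControl in their titles but wild type in their genotype field. No group had a further treatment, and all libraries are labelled batch 1. The hairpin sequence, the number of hairpins or clones and the origin of the replicates were not found in the sources used here, so p-values measure the spread between libraries, which may be technical.

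Total counts lay between 16176655 and 18484112 per library, and 16946 genes were tested. TTK stood at 33.9 ± 1.57 CPM in CAL-27 shTTK and 49.4 ± 3.58 CPM in CAL-27 shControl, and at 30.1 ± 3.80 CPM in SCC-15 shTTK and 69.9 ± 2.77 CPM in SCC-15 shControl (SD, n = 3 each), with no overlap in either line. The knockdown thus left 68.6% and 43.1% of the fitted control level in CAL-27 and SCC-15. All 10 squamous epithelial markers were detected, with summed levels of 5298 to 5403 CPM in CAL-27 shTTK, 3258 to 3422 CPM in CAL-27 shControl, 8072 to 8088 CPM in SCC-15 shTTK and 8412 to 8781 CPM in SCC-15 shControl. Of these, 7 were called higher and 2 lower in CAL-27, and 3 higher and 4 lower in SCC-15. Over all tested genes these shares were 11.6% and 15.7% in CAL-27, and 13.4% and 14.3% in SCC-15. KRT14 averaged 73.2 ± 2.96 CPM in CAL-27 shTTK and 3.44 ± 0.799 CPM in CAL-27 shControl, and fell by 1.05 on the log2 scale in SCC-15. CDH1 was at -0.11 in CAL-27 and 0.75 in SCC-15, both called. The summed levels of 8 fibroblast markers were 41.6 to 42.3 CPM in CAL-27 shTTK, 32.0 to 37.8 CPM in CAL-27 shControl, 20.6 to 22.7 CPM in SCC-15 shTTK and 21.2 to 23.0 CPM in SCC-15 shControl, and most of each sum was COL1A1, which rose in CAL-27 (34.3 ± 1.25 CPM in CAL-27 shTTK, 26.7 ± 2.90 CPM in CAL-27 shControl, edgeR adjusted p = 7.48e-05). DCN had 0 counts in CAL-27. Endothelial markers summed to 72.4 to 74.4 CPM in CAL-27 shTTK and 102 to 110 CPM in CAL-27 shControl, with at most 2.25 CPM in SCC-15. Nearly the whole CAL-27 sum was CDH5, which fell (71.5 ± 0.569 CPM in CAL-27 shTTK, 104 ± 4.21 CPM in CAL-27 shControl, edgeR adjusted p = 4.94e-14), while KDR had 0 counts in every library. Leukocyte markers summed to 8.01 to 8.22 CPM in SCC-15 shTTK and 9.18 to 10.3 CPM in SCC-15 shControl, and to at most 19.1 CPM in CAL-27, where CD14 averaged 12.7 ± 1.68 CPM in CAL-27 shTTK and 9.31 ± 2.02 CPM in CAL-27 shControl and PTPRC had 0 counts. In SCC-15 most of the leukocyte sum was CSF1R, at 7.80 ± 0.194 CPM in SCC-15 shTTK and 9.32 ± 0.615 CPM in SCC-15 shControl. Melanocyte markers reached at most 19.8 CPM, in SCC-15 shControl, with TYR at 0 counts in every library. MITF averaged 10.4 ± 1.22 CPM in SCC-15 shTTK and 12.5 ± 1.70 CPM in SCC-15 shControl, and PMEL 4.40 ± 1.16 and 5.01 ± 0.734 CPM. The part of these markers in the results was not tested. Library 1 of each SCC-15 group stood apart by the mean chi-square per gene. This was 3.07 and 3.80 for shTTK library 1 against the other shTTK libraries, which differed by 1.95, and 5.64 and 5.99 for control library 1, with 1.98 between the other controls. The median chi-square, as a multiple of counting error, was 2.19 and 2.63 for shTTK library 1, against 1.76. For control library 1 it was 1.91 and 2.11, against 1.75, and pairs of CAL-27 controls had 2.07 to 2.14.

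Of the 10 genes, 8 lie in the epidermal differentiation complex on chromosome 1. In GENCODE release 29 on GRCh38 they span, in order, FLG-AS1 (152168125 to 152445456, plus strand), FLG (152302175 to 152325203, minus strand), IVL (152908545 to 152911886, plus), SPRR1A (152985231 to 152985500, plus), SPRR3 (153001747 to 153003856, plus), SPRR1B (153031202 to 153032900, plus), SPRR2D (153039725 to 153041931, minus) and SPRR2A (153056113 to 153057537, minus). TGM1 lies on chromosome 14 (24249114 to 24264432, minus) and CNFN on chromosome 19 (42387019 to 42390287, minus). Promoter sequence was at hand for 7 of the 10 genes, in RefSeq on GRCh38.p14. Of these, 5 stretches of 250 bases before the transcription start are shown, so that SPRR1A and SPRR1B, which rose in both lines, can be set beside SPRR3, which shares a run of bases with them, and beside involucrin and filaggrin. Capitals mark each match to TGANTCA, a spelling of the site bound by AP-1 factors, and the run AGGCAGGGCT.
SPRR1A, chr1:152983831-152984080, plus strand: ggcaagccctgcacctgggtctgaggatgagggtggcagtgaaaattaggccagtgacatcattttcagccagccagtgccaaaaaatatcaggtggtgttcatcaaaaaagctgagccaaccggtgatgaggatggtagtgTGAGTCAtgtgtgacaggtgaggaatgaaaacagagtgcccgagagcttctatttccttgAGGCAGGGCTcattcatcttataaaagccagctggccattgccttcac
SPRR1B, chr1:153030953-153031202, plus strand: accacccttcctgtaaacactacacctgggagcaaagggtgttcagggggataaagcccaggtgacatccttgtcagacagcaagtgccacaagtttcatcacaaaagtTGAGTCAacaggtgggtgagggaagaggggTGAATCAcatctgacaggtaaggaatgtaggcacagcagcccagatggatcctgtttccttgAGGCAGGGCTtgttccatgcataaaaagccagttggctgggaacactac
SPRR3, chr1:153001499-153001748, plus strand: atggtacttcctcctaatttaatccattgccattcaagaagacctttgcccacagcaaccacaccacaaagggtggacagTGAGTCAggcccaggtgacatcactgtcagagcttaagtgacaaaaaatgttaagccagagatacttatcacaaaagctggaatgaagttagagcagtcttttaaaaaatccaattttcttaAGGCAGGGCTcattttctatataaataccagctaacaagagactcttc
IVL, chr1:152908296-152908545, plus strand: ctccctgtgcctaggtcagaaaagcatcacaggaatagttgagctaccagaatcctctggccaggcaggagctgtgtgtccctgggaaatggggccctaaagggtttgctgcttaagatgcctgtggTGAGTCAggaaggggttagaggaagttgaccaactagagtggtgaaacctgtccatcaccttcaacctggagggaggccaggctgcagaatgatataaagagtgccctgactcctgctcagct
FLG, chr1:152325240-152325489, minus strand: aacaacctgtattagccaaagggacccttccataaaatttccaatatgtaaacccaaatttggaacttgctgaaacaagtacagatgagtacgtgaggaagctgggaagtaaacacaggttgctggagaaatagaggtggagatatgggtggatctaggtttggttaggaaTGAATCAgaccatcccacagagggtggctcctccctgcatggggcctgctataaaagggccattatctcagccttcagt

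TGANTCA, which reads the same on both strands, was present in 6 of the 7 promoters (IVL, SPRR1A, SPRR1B, SPRR2A, SPRR3 and FLG), against 6.57% of 35116 promoters of the same length. SPRR1B held it at 2 positions, and CNFN did not hold these letters in this window. TATAAA, searched on both strands, was present in 5 of the 7, at -30 or -29 from the start, against 10.7% of all promoters. The run AGGCAGGGCT is the longest stretch common to the promoters of SPRR1A, SPRR1B and SPRR3. It begins 48 or 49 bases before the start in these 3 genes, and either strand of 0.319% of all promoters held it. The run was chosen after the promoters had been read, and a match describes letters only.

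Counts were low for most of the genes. The median tested gene had 15.2 CPM in CAL-27 shTTK, 15.3 CPM in CAL-27 shControl, 14.7 CPM in SCC-15 shTTK and 14.9 CPM in SCC-15 shControl, and of the 10 genes FLG alone had a group mean above these, in SCC-15 shControl. TGM1, SPRR1A, SPRR1B, CNFN, FLG and FLG-AS1 passed the filter on low counts, while IVL, SPRR2A, SPRR2D and SPRR3 did not and are given by their counts. SPRR1A reached 10 counts in the 3 CAL-27 shTTK libraries and in no other, so it entered the test through the group in which it was highest. In bulk RNA, fewer cells that express a gene and less RNA per cell cannot be told apart.

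**Figure D1:**
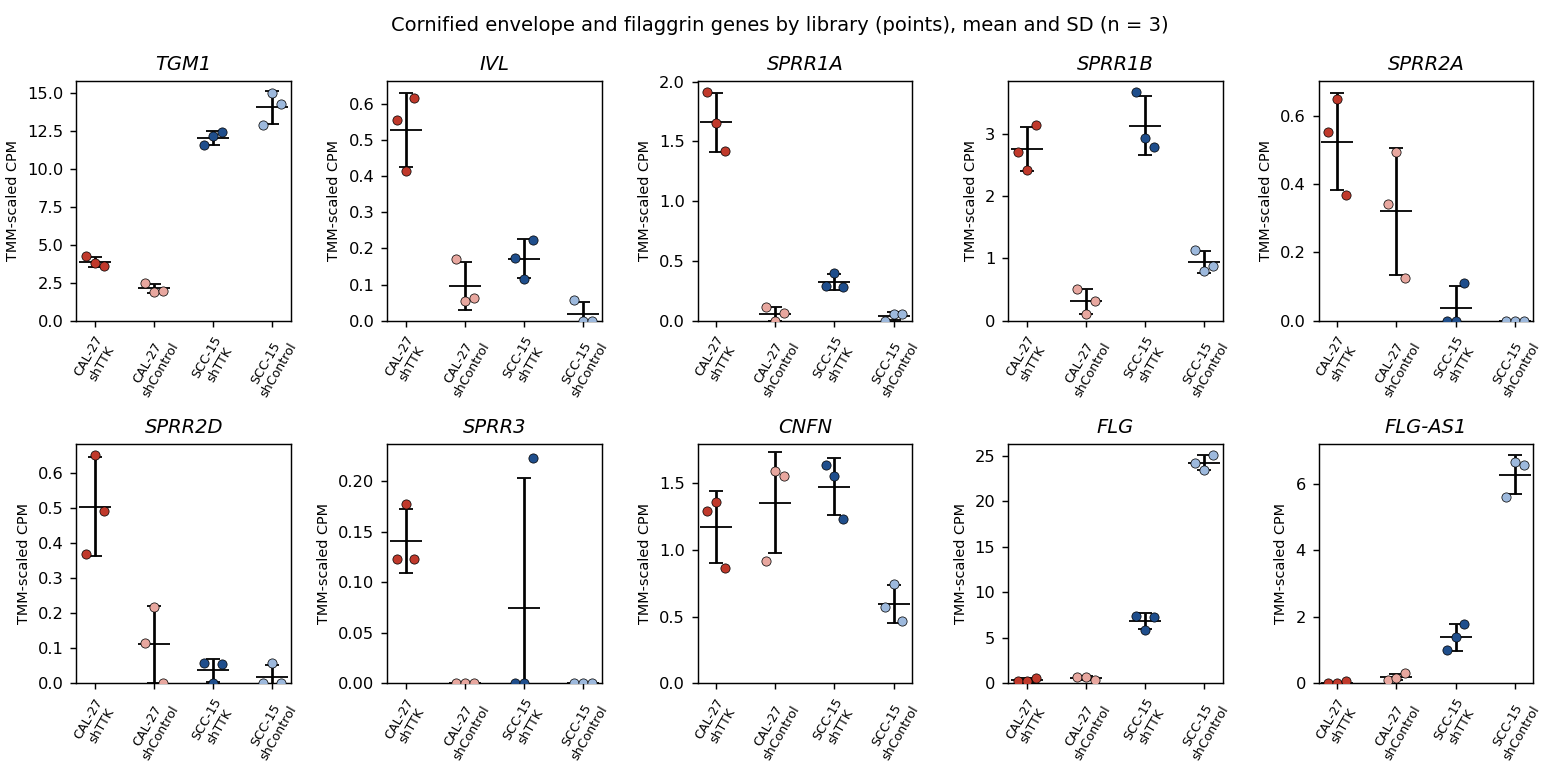
TMM-scaled CPM (y axis, linear, separate scale per gene) of the 10 genes in each of the 12 libraries (points), with the mean and SD of each group (bars, n = 3). SPRR1A and SPRR1B separated the shTTK libraries upward from the controls of their line, and FLG and FLG-AS1 were lower in every SCC-15 shTTK library than in every SCC-15 control library.

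With TTK knockdown in CAL-27, the small proline-rich genes SPRR1A and SPRR1B and the cross-linking enzyme TGM1 rose, and FLG-AS1 fell. In SCC-15, SPRR1A, SPRR1B and CNFN rose, and FLG and FLG-AS1 fell. In CAL-27, 3 of the 6 tested genes were called higher and 1 lower, where 11.6% and 15.7% of all 16946 tested genes were called higher and lower. SPRR1A is among the 3 and entered the test through CAL-27 shTTK, the group in which it was highest. Its call in CAL-27 is therefore no support for that count. In SCC-15 the counts were 3 and 2, where the shares over all tested genes were 13.4% and 14.3%. In either direction, 27.3% of all tested genes were called in CAL-27 and 27.7% in SCC-15. A gene was called at an adjusted p under 0.05 (edgeR quasi-likelihood test, two-sided, Benjamini-Hochberg over all tested genes). Without both SCC-15 libraries numbered 1, 3 of the 6 genes were called in SCC-15 (SPRR1B higher, FLG and FLG-AS1 lower) in place of 5. With the 6 SCC-15 libraries alone, SPRR1A did not pass the filter and 4 genes were called.

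TGM1, the membrane-anchored transglutaminase that makes the isopeptide bonds of the envelope, had 69, 64 and 59 counts in the CAL-27 shTTK libraries, against 43, 35 and 32 in the CAL-27 control libraries. The groups did not overlap. Its mean was 3.89 ± 0.322 CPM in CAL-27 shTTK and 2.12 ± 0.295 CPM in CAL-27 shControl (SD, n = 3). The log2 fold change was 0.87 ± 0.19 (SE, edgeR adjusted p = 1.21e-04). In SCC-15 it had 198, 211 and 222 counts with shTTK, against 225, 261 and 243 in shControl. These ranges did not overlap either, as for 19.6% of all tested genes that were lower in every SCC-15 shTTK library. The means were 12.04 ± 0.442 CPM in SCC-15 shTTK and 14.0 ± 1.08 CPM in SCC-15 shControl, but the log2 fold change of -0.22 ± 0.12 was not called (edgeR adjusted p = 0.166).

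Involucrin, the glutamine-rich scaffold on which the envelope is first assembled, was close to 0 in every group. IVL had 9, 7 and 10 counts in CAL-27 shTTK, against 3, 1 and 1 in CAL-27 shControl, and 3, 2 and 4 counts in SCC-15 shTTK, against 1, 0 and 0 in SCC-15 shControl. In each line every shTTK library was above every control library; 17.1% of all tested genes in CAL-27 and 19.3% in SCC-15 showed such a separation upward. The summed counts of 26 and 5 in CAL-27 shTTK and shControl gave a ratio of 5.46 per effective library size (exact 95% interval 2.06 to 18.2). In SCC-15, 9 counts in shTTK and 1 in shControl gave 8.93 (1.24 to 391). These intervals cover counting error only. In the fit with every gene that had a read, IVL was called in CAL-27 (edgeR adjusted p = 0.0491) and not in SCC-15 (0.171).

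The SPRR1 proteins are short, proline-rich precursors that transglutaminase places as bridges between other envelope proteins. SPRR1B had 44, 41 and 51 counts in CAL-27 shTTK, against 9, 2 and 5 in CAL-27 shControl. Its mean was 2.76 ± 0.359 CPM in CAL-27 shTTK and 0.311 ± 0.203 CPM in CAL-27 shControl, a log2 fold change of 3.13 ± 0.36 (edgeR adjusted p = 4.23e-11). In SCC-15, SPRR1B had 63, 51 and 50 counts with shTTK and 20, 14 and 15 in shControl. The means were 3.14 ± 0.472 CPM in SCC-15 shTTK and 0.942 ± 0.178 CPM in SCC-15 shControl, a log2 fold change of 1.73 ± 0.29 (edgeR adjusted p = 1.41e-06). The groups did not overlap in either line.

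SPRR1A, its close paralog, had 31, 28 and 23 counts in CAL-27 shTTK, against 2, 0 and 1 in CAL-27 shControl. The fitted log2 fold change was 4.68 ± 0.63 (edgeR adjusted p = 5.15e-09). With 3 counts in the control group, the ratio of summed counts was 28.7, with an exact 95% interval of 9.48 to 142. In SCC-15, SPRR1A had 5, 7 and 5 counts with shTTK and 0, 1 and 1 in shControl, a log2 fold change of 2.86 ± 0.90 (edgeR adjusted p = 0.0106) and a ratio of summed counts of 8.43 (2.001 to 75.2). That call was lost without SCC-15 control library 1 (log2 fold change 2.35, edgeR adjusted p = 0.0659) and without both SCC-15 libraries numbered 1 (2.41, edgeR adjusted p = 0.0796). With the 6 SCC-15 libraries alone, SPRR1A did not pass the filter on low counts and was not tested. Of the 50-base windows of the SPRR1A model, 11.3% also occur in SPRR1B transcripts, and of the 100-base windows 0% do.

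SPRR2A, SPRR2D and SPRR3 encode further proteins of the same family, the last best known from esophagus and mouth. SPRR2A had 9, 11 and 6 counts in CAL-27 shTTK and 6, 9 and 2 in CAL-27 shControl, and these ranges overlapped. SPRR2D had 6, 11 and 8 counts in CAL-27 shTTK and 2, 4 and 0 in CAL-27 shControl, without overlap, and a ratio of summed counts of 4.38 (1.75 to 13.04). SPRR3 had 2, 3 and 2 counts in CAL-27 shTTK and 0 in each CAL-27 control library. This is 2.45-fold higher when the controls are set to a group floor of 3 counts. The exact 95% lower limit for the ratio of summed counts was 1.51. In SCC-15 these genes had between 0 and 4 counts in any library. The 4 SPRR3 counts of SCC-15 shTTK all fell in library 3. In the fit with every gene that had a read, none of the 3 genes was called in either line (edgeR adjusted p between 0.129 and 0.931). Since 32.7% of the 50-base windows of SPRR2A and 19.3% of those of SPRR2D also occur in other SPRR2 transcripts, how their reads were shared out is uncertain.

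Summed over the 5 SPRR genes, the CAL-27 shTTK libraries held 92, 94 and 90 counts and the CAL-27 control libraries 19, 15 and 8. The SCC-15 shTTK libraries held 69, 58 and 62 counts and the SCC-15 control libraries 20, 16 and 16. SPRR1A and SPRR1B together made up most of the sum in both knockdown groups.

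**Figure D2:**
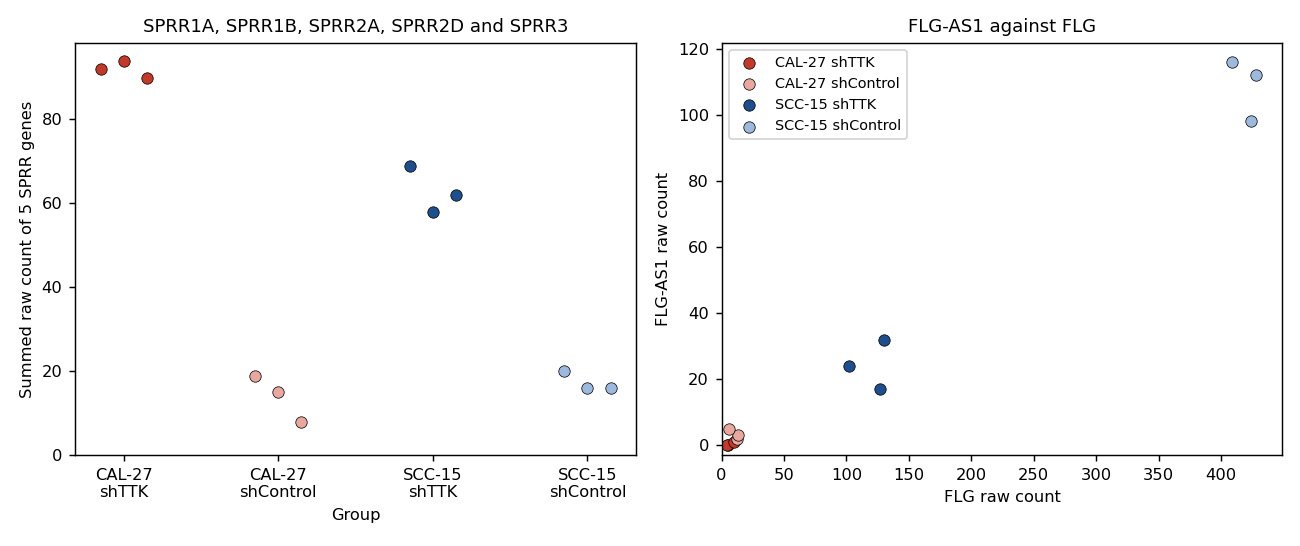
Left, the raw count summed over SPRR1A, SPRR1B, SPRR2A, SPRR2D and SPRR3 (y axis) in each library by group, with 92, 94 and 90 counts in CAL-27 shTTK against 19, 15 and 8 in CAL-27 shControl. Right, the raw FLG-AS1 count (y axis) against the raw FLG count (x axis) in the same 12 libraries, where the SCC-15 shTTK libraries lie between the SCC-15 control libraries and the CAL-27 libraries on both axes.

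Cornifelin is a small cysteine-rich envelope component. CNFN had 28, 27 and 22 counts in SCC-15 shTTK, against 10, 13 and 8 in SCC-15 shControl, without overlap. The means were 1.47 ± 0.214 CPM in SCC-15 shTTK and 0.596 ± 0.140 CPM in SCC-15 shControl (SD, n = 3), and the log2 fold change was 1.29 ± 0.37 (edgeR adjusted p = 5.19e-03). Without both SCC-15 libraries numbered 1 this was 1.18 and was not called (edgeR adjusted p = 0.0560). In CAL-27 the counts were 21, 23 and 14 with shTTK and 16, 29 and 25 in shControl. There the groups overlapped, and the log2 fold change of -0.20 ± 0.34 was not called (edgeR adjusted p = 0.732).

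Filaggrin is made as a long precursor of tandem repeats that is cut into monomers in the cornified layer. FLG had 127, 102 and 130 counts in SCC-15 shTTK, against 424, 409 and 428 in SCC-15 shControl. Every knockdown library was below every control library. The means were 6.85 ± 0.846 CPM in SCC-15 shTTK and 24.3 ± 0.814 CPM in SCC-15 shControl, a log2 fold change of -1.82 ± 0.12 that left 28.3% of the fitted control level (edgeR adjusted p = 4.29e-21). In CAL-27, FLG had 5, 4 and 10 counts with shTTK and 12, 13 and 6 in shControl, which overlapped, and the log2 fold change of -0.62 ± 0.41 was not called (edgeR adjusted p = 0.288). Within the longest FLG transcript, 15.4% of the 100-base windows occur more than once, so its counts depend on how repeated reads were treated, which is not given in the sources used here.

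FLG-AS1 is transcribed across the filaggrin gene from the other strand. It had 17, 24 and 32 counts in SCC-15 shTTK, against 98, 116 and 112 in SCC-15 shControl, without overlap. Its mean was 1.39 ± 0.398 CPM in SCC-15 shTTK and 6.27 ± 0.586 CPM in SCC-15 shControl, a log2 fold change of -2.17 ± 0.25 (edgeR adjusted p = 3.70e-11). FLG-AS1 counts amounted to 13.4%, 23.5% and 24.6% of FLG counts in the SCC-15 shTTK libraries and to 23.1%, 28.4% and 26.2% in the SCC-15 control libraries. These ranges overlapped. The annotated exons of the 2 genes share 704 bases, which is 9.2% of the merged FLG-AS1 exons and 5.5% of the merged FLG exons. The kit marked strand, but the strand setting of the counting is not given in the sources used here, and reads of the shared bases cannot be told apart without it.

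In CAL-27, FLG-AS1 had 0, 0 and 1 counts with shTTK and 2, 3 and 5 in shControl, without overlap, as for 21.3% of all tested genes on the lower side. The ratio of summed counts, 1 over 10, was 0.105 (exact 95% interval 0.00242 to 0.738), and the fitted log2 fold change of -2.86 ± 1.03 was called (edgeR adjusted p = 0.0293). The call was lost without CAL-27 shTTK library 1 (edgeR adjusted p = 0.113) or 2 (0.121), without CAL-27 control library 3 (0.136), with every gene that had a read (0.0665) and with DESeq2 (adjusted p = 0.0541). Without CAL-27 shTTK library 3 the remaining knockdown libraries held 0 counts, and the fitted log2 fold change was -4.78, a value that depends on the prior count.

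**Figure D3:**
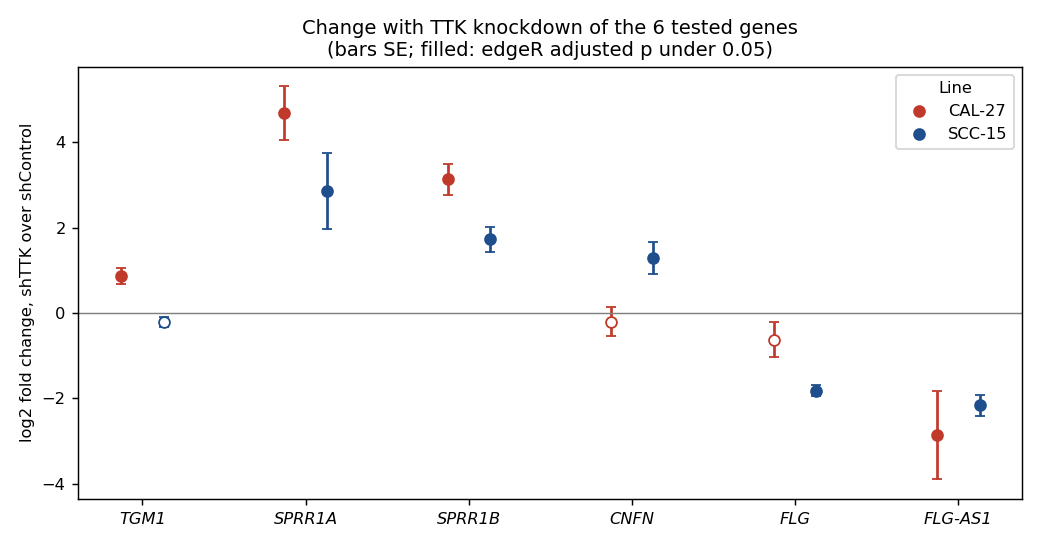
Log2 fold change of shTTK over shControl (y axis) with its SE (bars) for the 6 tested genes in CAL-27 (red) and SCC-15 (blue), filled where the edgeR adjusted p was under 0.05. SPRR1A and SPRR1B lie above 0 in both lines, CNFN was called in SCC-15 at 1.29, and FLG lies at -0.62 in CAL-27 and -1.82 in SCC-15.

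The change with knockdown differed between the lines for 4 of the 6 tested genes by the interaction contrast (change in SCC-15 less change in CAL-27), 1 higher and 3 lower. Over all tested genes 25.4% were called in that contrast, 13.3% higher and 12.1% lower. For TGM1 the difference was -1.09 ± 0.22 (edgeR adjusted p = 5.34e-05), and it was called in the 19 alternatives run, with adjusted p-values up to 6.83e-04. For CNFN it was 1.49 ± 0.51 (edgeR adjusted p = 0.0215), for SPRR1B -1.40 ± 0.50 (0.0292) and for FLG -1.20 ± 0.46 (0.0463).

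These last 3 calls were lost in several alternatives. With all 12 libraries, FLG was not called by limma-voom (adjusted p = 0.0857) or with every gene that had a read (edgeR adjusted p = 0.0929), and SPRR1B was not called with every gene that had a read (0.0553). The call of CNFN was lost without CAL-27 shTTK library 3 (edgeR adjusted p = 0.0611), CAL-27 control library 2 (0.0641) or SCC-15 control library 3 (0.0592). SPRR1B lost its call without CAL-27 shTTK library 3 (edgeR adjusted p = 0.0622), CAL-27 control library 2 (0.173) or 3 (0.0549), SCC-15 shTTK library 2 (0.0505) or 3 (0.0569), or SCC-15 control library 1 (0.0939). The FLG difference was -0.72 and not called without CAL-27 shTTK library 3 (edgeR adjusted p = 0.442), and it was also not called without CAL-27 shTTK library 1 (0.0504), CAL-27 control library 3 (0.138), SCC-15 shTTK library 2 (0.0752) or SCC-15 control library 1 (0.0574) or 3 (0.0596). Without both SCC-15 libraries numbered 1, CNFN (edgeR adjusted p = 0.0741) and SPRR1B (0.0743) were not called. For SPRR1A the difference was -1.82 ± 1.66 (edgeR adjusted p = 0.480) and for FLG-AS1 0.70 ± 0.92 (0.652), so neither was shown to change differently in the 2 lines.

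Among the 6 tested genes described here, FLG and FLG-AS1 had the largest fitted differences between the control cells of the lines. FLG averaged 24.3 ± 0.814 CPM in SCC-15 shControl and 0.590 ± 0.190 CPM in CAL-27 shControl, a log2 difference of 5.33 ± 0.19 or 40.2-fold (edgeR adjusted p = 1.20e-39). FLG-AS1 averaged 6.27 ± 0.586 CPM in SCC-15 shControl and 0.196 ± 0.101 CPM in CAL-27 shControl (4.97 ± 0.35, edgeR adjusted p = 9.32e-22). TGM1 was 6.60-fold higher in SCC-15 shControl than in CAL-27 shControl (2.72 ± 0.15, edgeR adjusted p = 2.56e-27), and SPRR1B was also higher in SCC-15 (1.59 ± 0.43, edgeR adjusted p = 7.00e-04). CNFN was lower in SCC-15 shControl, at 0.596 ± 0.140 CPM, than in CAL-27 shControl, at 1.35 ± 0.378 CPM (-1.17 ± 0.38, edgeR adjusted p = 4.34e-03). SPRR1A was not called, with 2 counts in SCC-15 shControl and 3 in CAL-27 shControl. SPRR2A had 0 counts in SCC-15 shControl and 17 in CAL-27 shControl, which is 5.68-fold lower in SCC-15 with the same group floor. The exact 95% upper limit for the ratio of summed counts was 0.242. Of all tested genes, 39.1% were likewise lower in every SCC-15 control library. Of the 6 tested genes, 4 were called higher and 1 lower in SCC-15 shControl, where 37.8% and 38.2% of all tested genes were, and 76.0% in either direction. This comparison and both knockdown comparisons share control libraries.

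Per kilobase of merged GENCODE exons, the order of levels differed between groups. In SCC-15 shControl, TGM1 stood first at 3.76 ± 0.288 CPM per kilobase, above FLG at 1.90 ± 0.0639, SPRR1B at 1.52 ± 0.287, CNFN at 0.988 ± 0.232 and FLG-AS1 at 0.816 ± 0.0762 CPM per kilobase, and the SDs of CNFN and FLG-AS1 overlapped. In SCC-15 shTTK, SPRR1B stood first at 5.06 ± 0.761 CPM per kilobase, ahead of TGM1 at 3.22 ± 0.118, CNFN at 2.44 ± 0.355 and SPRR1A at 1.20 ± 0.253, while FLG stood at 0.537 ± 0.0663 CPM per kilobase. In CAL-27 shTTK, SPRR1A stood at 6.15 ± 0.914 and SPRR1B at 4.45 ± 0.579 CPM per kilobase, whereas in CAL-27 shControl CNFN led at 2.24 ± 0.627 CPM per kilobase, above TGM1 at 0.568 ± 0.0791 and SPRR1B at 0.502 ± 0.327, whose SDs overlapped. The SPRR1A model of this annotation is a single exon of 270 bases, and its level per kilobase depends on that short length. The annotation the authors counted against is not given in the sources used here.

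The 19 late envelope genes found in the table, loricrin (LOR) and the LCE family, had no tested member, at most 12 counts summed over any group, and LOR had 0 counts in all 12 libraries. None of the 7 other SPRR genes was tested. SPRR2E, named after its values were seen, had 26 counts in CAL-27 shTTK and 0 in CAL-27 shControl. The 26 counts were spread unevenly over the libraries (0.533 ± 0.438 CPM, SD). Its transcripts share windows with SPRR2A and SPRR2D, so how its reads were shared out is uncertain too. Of the 6 relatives of filaggrin with fused S100 domains, TCHH and HRNR were tested. HRNR, which encodes hornerin and lies beside FLG, fell in SCC-15 (1.70 ± 0.268 CPM in SCC-15 shTTK, 4.34 ± 0.715 CPM in SCC-15 shControl, log2 fold change -1.35 ± 0.24, edgeR adjusted p = 4.14e-06) and was not called in CAL-27 (0.39 ± 0.24, edgeR adjusted p = 0.248). FLG2, a second filaggrin, also outside the rule for named genes, had 12 counts in SCC-15 shTTK and 33 in SCC-15 shControl.

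A further list held 14 envelope precursors and other genes of late keratinocyte differentiation, of which 9 were tested. Of these, 4 rose and 0 fell in CAL-27 (median log2 fold change 0.11) and 3 rose and 1 fell in SCC-15 (median 0.11). Over all tested genes the medians were -0.01 and 0.00, and the called shares were 11.6% higher and 15.7% lower in CAL-27 and 13.4% higher and 14.3% lower in SCC-15. PI3, the protease inhibitor elafin and a transglutaminase substrate, rose in CAL-27 (7.78 ± 1.05 CPM in CAL-27 shTTK, 2.16 ± 0.962 CPM in CAL-27 shControl, log2 fold change 1.84 ± 0.22, edgeR adjusted p = 1.61e-10). ANXA1, annexin A1, rose by 0.75 on the log2 scale in CAL-27 and was at -0.07 in SCC-15, where it was not called (edgeR adjusted p = 0.0524). CSTA, cystatin A, was called in opposite directions, at -0.23 in SCC-15 and 0.58 in CAL-27, and its difference between lines was -0.82 (edgeR adjusted p = 5.16e-10). LYPD3 rose in SCC-15 by 0.43.

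Of 17 genes for cross-linking and for the processing of filaggrin, 13 were tested, and 8 rose and 4 fell in CAL-27 (median 0.15), with 5 and 2 in SCC-15 (median 0.17). Of all tested genes, 11.6% rose and 15.7% fell in CAL-27, and 13.4% rose and 14.3% fell in SCC-15. TGM2, the ubiquitous transglutaminase, fell in CAL-27 by 0.65 and in SCC-15 by 0.29 on the log2 scale. PADI1, a peptidylarginine deiminase, rose in both lines, by 0.71 in CAL-27 and 1.06 in SCC-15. It had 5906 and 3810 counts in CAL-27 shTTK and shControl, but only 53 and 25 in SCC-15 shTTK and shControl. BLMH, bleomycin hydrolase, which degrades filaggrin to amino acids, fell by 0.25 in SCC-15 and rose by 0.80 in CAL-27 on the log2 scale, and the difference was -1.04 (edgeR adjusted p = 4.04e-06). KLK5, a kallikrein protease of the outer layers, rose by 1.28 in CAL-27 and 1.47 in SCC-15. ST14, the protease matriptase, was at -0.12 in CAL-27 and 0.28 in SCC-15, both called. Of 17 barrier lipid genes, 13 were tested, with 3 higher and 3 lower in CAL-27 (median -0.10) and 4 and 1 in SCC-15 (median 0.01). CERS3, the ceramide synthase of very long chains, had 75 counts in CAL-27 shTTK and 5 in CAL-27 shControl (log2 fold change 3.88 ± 0.62, edgeR adjusted p = 5.14e-07), and 2 counts in SCC-15 shTTK and 6 in SCC-15 shControl, where it was not called (edgeR adjusted p = 0.409). It entered the test through CAL-27 shTTK, the group in which it was highest, so its call there is no support for the list. Over all tested genes the called shares were 11.6% higher and 15.7% lower in CAL-27 and 13.4% higher and 14.3% lower in SCC-15.

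Of 28 regulators of keratinocyte differentiation, 26 were tested, and 13 rose and 3 fell in CAL-27 (median 0.24), with 9 and 5 in SCC-15 (median 0.10). TP63, the transcription factor p63 of stratified epithelia, averaged 479 ± 6.93 CPM in CAL-27 shTTK and 224 ± 8.19 CPM in CAL-27 shControl (log2 fold change 1.10 ± 0.032, edgeR adjusted p = 2.59e-43). In SCC-15 it was called lower (244 ± 3.33 CPM in SCC-15 shTTK, 277 ± 2.15 CPM in SCC-15 shControl, -0.18 ± 0.032, edgeR adjusted p = 4.75e-06). ZNF750, a target of p63 that promotes terminal differentiation, fell by 1.74 in SCC-15 (edgeR adjusted p = 3.56e-03) and rose by 1.05 in CAL-27 (edgeR adjusted p = 0.0454), a difference of -2.79 (edgeR adjusted p = 1.72e-03). NOTCH3 rose by 0.69 in CAL-27 and fell by 0.59 in SCC-15, whereas CEBPB was at -0.30 in CAL-27 and 0.31 in SCC-15, all called. KLF4, a factor of barrier formation, rose by 1.01 in CAL-27 and was at -0.09 in SCC-15 (edgeR adjusted p = 0.261). JUN, an AP-1 subunit, rose by 0.22 in CAL-27 and 0.63 in SCC-15. Among the 6 tested spinous keratins and cadherins, 3 rose and 0 fell in CAL-27 (median 1.28, or 0.79 without 1 gene at or under 3 counts in both groups) and 0 rose and 2 fell in SCC-15 (median -0.12). KRT13, a keratin of the oral lining, rose by 1.76 in CAL-27 (114 counts in CAL-27 shTTK, 35 in CAL-27 shControl) and fell by 0.19 in SCC-15. KRT1 had 12 counts in CAL-27 shTTK and 1 in CAL-27 shControl. In SCC-15 it had 10 counts with shTTK and 64 in shControl, and both changes were called. KRT1 entered the test through SCC-15 shControl, the group in which it was highest. Its call in SCC-15 is therefore no support for the 2 that fell there. The cadherin DSG3 rose by 0.79 in CAL-27. For both the regulators and this list, the called shares over all tested genes were 11.6% higher and 15.7% lower in CAL-27 and 13.4% higher and 14.3% lower in SCC-15.

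Along the differentiation complex, from S100A10 to S100A1 (chromosome 1, 151982915 to 153632039, GRCh38), 27 of 90 annotated genes were tested, among them 4 of the genes described above. Of the 23 others, 9 rose and 2 fell in CAL-27, where 11.6% and 15.7% of all tested genes did, and 6 rose and 1 fell in SCC-15, where 13.4% and 14.3% did. Among the 9 is PGLYRP3, outside the rule for named genes, with 53 counts in CAL-27 shTTK and 14 in CAL-27 shControl. It entered the test through CAL-27 shTTK, the group in which it was highest, so its call there is no support for the count. The median log2 fold change of the 27 was 0.53 in CAL-27, and in SCC-15 it was 0.07 over the 22 with more than 3 counts in a group. S100A9, a subunit of calprotectin, rose in CAL-27, with 1499 ± 62.8 CPM in CAL-27 shTTK and 561 ± 31.0 CPM in CAL-27 shControl (log2 fold change 1.42 ± 0.072, edgeR adjusted p = 4.39e-07), and had 4 counts in SCC-15 shTTK and 21 in SCC-15 shControl. Its partner S100A8 rose by 1.94 in CAL-27, and S100A7 (psoriasin) by 2.33 and S100A7A by 2.44, where SCC-15 had at most 5 counts in a group. S100A2 rose in CAL-27 by 0.86 and was at 0.08 in SCC-15, where it was not called (edgeR adjusted p = 0.165). S100A14 rose in both lines, by 0.81 in CAL-27 and 0.51 in SCC-15, and S100A13 rose in SCC-15 by 0.63 and was at -0.01 in CAL-27 (edgeR adjusted p = 0.935).

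**Figure D4:**
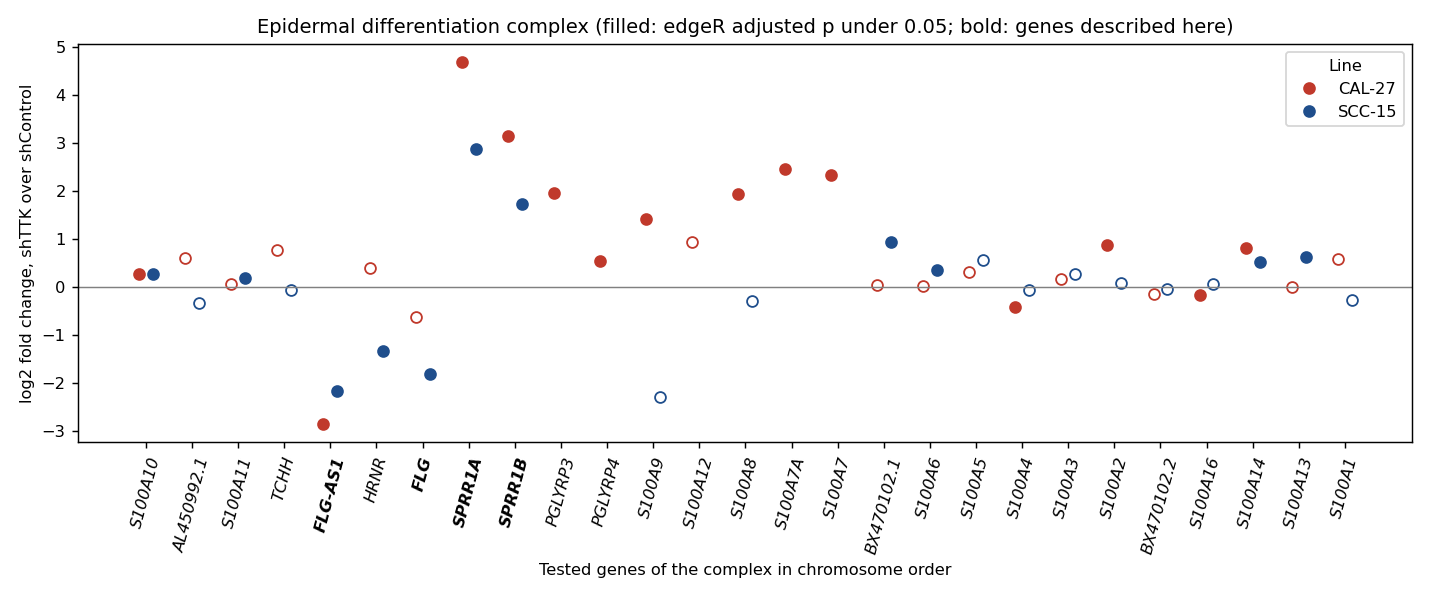
Log2 fold change of shTTK over shControl (y axis) of the 27 tested genes of the epidermal differentiation complex in chromosome order (x axis, gene order only) in CAL-27 (red) and SCC-15 (blue), filled where the edgeR adjusted p was under 0.05; genes at or under 3 counts in both groups of a line have no point for that line. In SCC-15, FLG-AS1, HRNR and FLG lie below 0 next to SPRR1A and SPRR1B above 0.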

How the data were processed

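Unnormalized read counts, listed by gene symbol, were deposited by the authors for 12 libraries. Trim Galore 0.6.6, STAR 2.7.7a, featureCounts 2.0.1 and build hg38 are named, per the submitters' processing notes, and the libraries were stranded (dUTP) with paired reads of 150 bases, per the labels' protocols. The annotation release, the strand setting and the treatment of multi-mapped reads were not found in the sources used here. The table had 0 columns without a sample.

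The filterByExpr function of edgeR kept 16946 of 58735 lines, which were scaled by TMM and fitted with edgeR 4.0.16 (limma 3.58.1, R 4.3.3) as a robust quasi-likelihood model of 4 group means, with 8 residual degrees of freedom. P-values were two-sided and adjusted by Benjamini-Hochberg over all tested genes. SEs are the log2 fold change over the root of F. CPM are TMM-scaled. With 3 against 3 libraries an exact permutation test cannot go below p = 0.1, so none was used. Alternatives were RLE, DESeq2 1.42.0, limma-voom, other count filters, a blocked fit on the replicate number, the 6 libraries compared by themselves, and omission of each library or of both SCC-15 libraries numbered 1. The steps were tested on simulated data.

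The genes, the gene lists and the alternatives were chosen with earlier results of these data known. Beside the 10 genes and TTK, the text names genes by a rule: up to 4 called genes per list by smallest adjusted p in the knockdown contrasts, those called in opposite directions, and of the differentiation complex up to 6 called genes per line by size of change with at least 5 CPM. Not all genes the rule takes are described. Windows of 50 and 100 bases were compared across GENCODE 29 transcripts on both strands. Count intervals are exact 95% intervals conditional on the summed counts and cover counting error only.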

Additional observations from a re-analysis of the deposited data

Results flagged for a closer look

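The knockdown change differed between the lines, by the interaction contrast of the edgeR fit, in 4 of the 6 tested genes and in TTK itself. Over all tested genes, 25.4% were called in that contrast. Of 19 alternatives, 9 lost the call of FLG, 8 that of SPRR1B and 4 that of CNFN, while TGM1 kept its call in each. Change in SCC-15 less change in CAL-27 came to -1.09 for TGM1, with -0.22 in SCC-15 and 0.87 in CAL-27. For SPRR1B it was -1.40, although the gene rose in both lines, by 1.73 in SCC-15 and 3.13 in CAL-27. For CNFN it was 1.49, with 1.29 in SCC-15 and -0.20 in CAL-27. For FLG it was -1.20, with -1.82 in SCC-15 and -0.62 in CAL-27, where the gene had 4 to 13 counts per library. TTK was itself lowered by different amounts, a difference of -0.67, and the part of the unequal knockdown in the other differences was not tested.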

How the results depend on the processing

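Over the 24 values of the 6 tested genes in 4 contrasts and 20 alternatives, 468 recomputed values were obtained, of which 438 kept their side of the threshold, 30 lost a call, 0 gained one and 0 called values reversed. The SPRR1A difference between control groups, not called at -0.51, turned positive without CAL-27 control library 1 (0.33), SCC-15 control library 1 (0.0041) or both SCC-15 libraries numbered 1 (0.0066). In CAL-27, 4 genes were called (3 higher, 1 lower). DESeq2 called 2 (0 lower), with no adjusted p for SPRR1A in either line, and 0 were called lower with every gene that had a read or with the 6 CAL-27 libraries alone, where FLG-AS1 was not tested. Leaving out 1 library gave 3 to 4 genes, 0 to 1 of them lower. In SCC-15, 5 genes were called (3 higher), and 3 (1 higher) without both libraries numbered 1. With the 6 SCC-15 libraries alone, 4 were called (2 higher), and SPRR1A was not tested. For the difference between lines, with 4 genes called (1 higher, 3 lower), every gene with a read gave 2 (1 lower), omission of both SCC-15 libraries numbered 1 gave 2 (0 higher), and leaving out 1 library gave 1 to 4 genes, 0 to 1 higher and 1 to 3 lower. It could not be fitted within 1 line. Between control groups, 1 gene was called lower, against 2 with every gene that had a read (SPRR2A was added) and 0 with the replicate block. For calls lost with fewer libraries the construction leaves fewer samples. With the replicate block, control groups are compared at the level fitted for replicate number 1, not between group means. That comparison is thus a different quantity from the unblocked one. For the other lost calls the cause was not tested. Same-numbered libraries did not deviate together (correlations of -0.0197 to 0.0345 within a line). Deviations of low-count genes hold counting error, so these correlations cannot settle whether the numbers pair the libraries. With the replicate block the FLG difference between lines was -1.20 (edgeR adjusted p = 0.0532). CNFN between control groups, at the level fitted for replicate number 1, was -0.90 (edgeR adjusted p = 0.136). No other call of the 6 genes changed with the block. Depth limits IVL, SPRR2A, SPRR2D and SPRR3, which had at most 11 counts in any library.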
